A study of Mus musculus with 4 samples.

Results

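The genes described here are the 7 that encode shelterin, the protein complex that covers chromosome ends in mouse cells: *Terf1*, *Terf2*, *Terf2ip*, *Tinf2*, *Pot1a*, *Pot1b* and *Acd*. They were taken by name from the single-cell tables of 4 mouse arterial libraries, which list 31765 genes for plaque and 29459 for the ligated carotid artery. All 7 were listed in every library. The plaque libraries came from aorta and carotid artery of Myh11-CreERt2/Confetti/ApoE-/- mice (ApoE-/-) and of Myh11-CreERt2/Confetti/Sm22a-Trf2T188A/ApoE-/- mice (Trf2T188A/ApoE-/-). Both carried the tamoxifen-inducible Myh11-CreERt2 driver, the multicolour Confetti reporter that it switches on in smooth muscle cells, and the ApoE deletion, and both received tamoxifen from 6 weeks of age and then high fat diet for 14 weeks. The ligation libraries came from the left carotid artery of male wild type control mice and of SM22a-TRF2T188A littermates, 4 to 5 months old, 28 days after its ligation. Trf2T188A is a human TRF2 with the amino acid change T188A, expressed from a minimal Sm22a promoter that is active in arterial smooth muscle cells, so other cells of these vessels need not express it, and the labels name no deletion of mouse *Terf2* in any group. Each group is 1 library, and the number of mice pooled in it is not given in the sources used here. No test across samples was therefore possible, and every interval below covers counting error only.

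Telomeres end in repeated duplex DNA with a single-stranded overhang, and shelterin hides both from the DNA damage machinery. TRF1 (*Terf1*) and TRF2 (*Terf2*) bind the duplex repeats, RAP1 (*Terf2ip*) rides on TRF2, and TIN2 (*Tinf2*) bridges TRF1 and TRF2 to TPP1 (*Acd*), which brings POT1 to the single strand and telomerase to the end. Mice, unlike humans, have a pair of POT1 genes, of which *Pot1a* is best known for restraining ATR signalling and *Pot1b* for limiting resection of the end. Loss of TRF2 from telomeres exposes them to ATM signalling and end joining. The T188A form is altered at a phosphorylation site of TRF2, and the study used it to ask about telomere damage and senescence in smooth muscle cells.

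In the GRCm38 annotation (GENCODE M21), 3 of the 7 lie on chromosome 8: *Acd* at chr8:105695860-105701102 and *Terf2* at chr8:107069400-107096547, both on the minus strand, and *Terf2ip* at chr8:112011398-112020528 on the plus strand. *Terf1* is at chr1:15805646-15844052 on the plus strand. *Tinf2* at chr14:55674689-55681820, *Pot1a* at chr6:25743737-25809246 and *Pot1b* at chr17:55651951-55712628 are on the minus strand. All are protein coding. *Tinf2* overlaps *Gmpr2* over 4512 bases and *Acd* overlaps *Carmil2* over 2328 bases, each on the opposite strand, so reads there are told apart only by strand. *Pot1a* and *Pot1b* shared 0 stretches of 31 bases within the last 500 bases of their transcripts, from which libraries of this kind draw most reads. Of such stretches, 7.55% for *Pot1b* and 8.72% for *Terf2ip* also occurred in transcripts of other genes, and 0% for *Terf2* and *Acd*.

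The deposited values, UMIs per 10000 per cell, returned whole UMI counts for every value. The plaque libraries held 1502 ApoE-/- and 929 Trf2T188A/ApoE-/- cells, with medians of 22765.5 and 24377 UMIs per cell, and the ligation libraries 4967 control and 5392 Trf2T188A cells, with medians of 8631 and 11153. The libraries shared at most 10 cell barcodes. Clustering gave 14 plaque and 6 ligation clusters. From markers, plaque clusters were called contractile-like (clusters 0, 1, 6 and 11), fibromyocyte-like (cluster 2), acute-phase-like (cluster 4) and chondrocyte-like (cluster 8). The other plaque clusters stayed unnamed, among them cluster 5 with few UMIs per cell. Unnamed cluster 9 also had 4 of 8 contractile markers higher than in other plaque cells, and they summed to 416 UMIs per 10000. In cluster 11 it was 4 of 8 and 419. Contractile-like values below leave out cluster 9. Ligation clusters were cluster 0 (led by *Sparcl1*), remodelling-like, de-differentiated-like, interferon-responding-like, endothelial-like and myeloid-like, of which the first 4 were taken as smooth muscle cells. All 8 contractile markers had UMIs in both plaque libraries and in both sets of smooth muscle cells. In those the 8 endothelial markers summed to at most 0.597 and the 8 myeloid markers to at most 0.504 UMIs per 10000. The 5 fibroblast markers summed to at most 1.08 there. Unnamed plaque clusters 12 and 13 had 5 of 5 fibroblast markers higher than in other plaque cells. Cluster 12 held 21 ApoE-/- cells and 1 Trf2T188A/ApoE-/- cell, and all 14 cells of cluster 13 were ApoE-/-. A reporter UMI was found in 38.1% and 7.14% of their ApoE-/- cells. Values over all plaque cells include both clusters. The part of endothelial, myeloid and fibroblast cells in the values below was not tested.

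Every shelterin gene was detected in each library, at low levels. Levels are given as CPM, the UMIs of a gene in each 1000000 UMIs of the cells described, and are not divided by gene length. *Terf2*, the gene whose protein the transgene mimics, stood at 18.3 CPM in both plaque libraries, 17.9 in the ligation control and 16.8 after ligation in Trf2T188A mice. *Terf1* stood at 14.4 and 14.9 in ApoE-/- and Trf2T188A/ApoE-/- plaque and at 14.4 and 13.9 in control and Trf2T188A ligated artery. The counting intervals of *Terf1* and of *Terf2* overlapped in all 4 libraries.

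*Terf2ip*, encoding the TRF2 partner RAP1, was at 16.7 and 18.3 CPM in plaque and at 22.1 and 23.0 in ligated artery, so both ligation libraries lay above both plaque libraries. *Acd*, encoding TPP1, was at 10.9 and 11.01 in plaque and at 11.5 and 13.2 after ligation, with the Trf2T188A ligation library highest. *Tinf2*, the bridging subunit, was at 5.57 and 4.86 in plaque and 4.36 and 4.92 after ligation, and its libraries overlapped in their intervals.

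The pair of POT1 genes differed in how they varied. *Pot1a* was at 6.65 and 6.69 CPM in plaque and at 4.99 and 5.26 after ligation. *Pot1b* was at 6.47 in ApoE-/- plaque, 4.86 in Trf2T188A/ApoE-/- plaque, and 2.28 and 2.27 in the ligation libraries. *Pot1b* thus varied most relative to its level, with both ligation libraries low, while *Terf1* kept within 13.9 to 14.9.

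**Figure D1:**
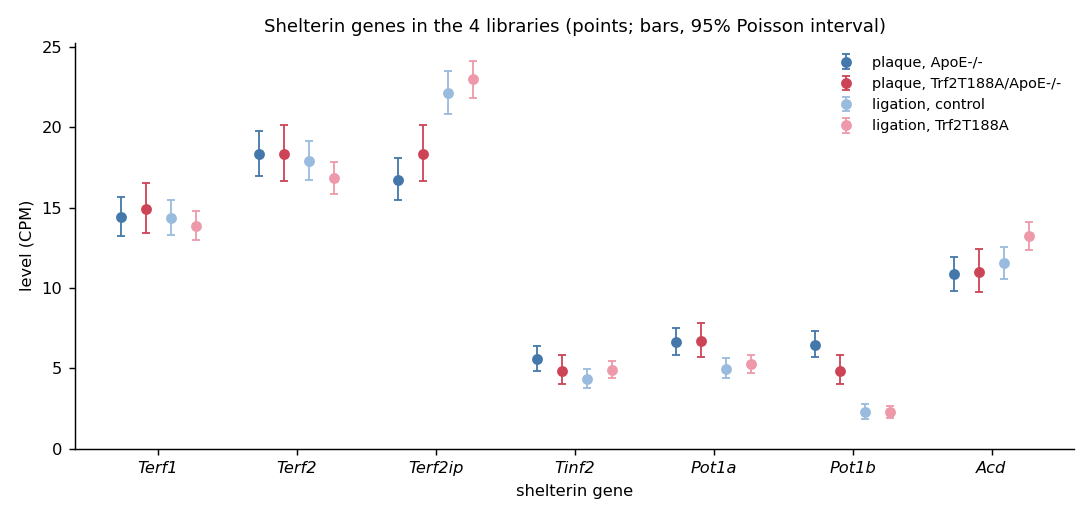
Level of each shelterin gene (x axis) in CPM (y axis) in the 4 libraries, with 95% Poisson intervals as bars. *Terf1* and *Terf2* lie close together in all 4 libraries, *Terf2ip* is higher in the 2 ligation libraries, and *Pot1b* is lower there (2.28 and 2.27) than in plaque (6.47 and 4.86).

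As single-cell signals these genes were sparse. *Terf2* had a UMI in 34.0% of ApoE-/- plaque cells (510 of 1502) and 32.0% of Trf2T188A/ApoE-/- cells (297 of 929), with at most 4 and 9 UMIs in a cell. After ligation *Terf2* UMIs were found in 15.0% of control and 18.2% of Trf2T188A cells. *Pot1b* had a UMI in 12.7% and 10.0% of plaque cells and in 2.13% and 2.73% of ligation cells. Of the cells with a *Terf2* UMI in ApoE-/- plaque, 369 held a single one. No shelterin gene at all was detected in 20.8% of ApoE-/- and 24.5% of Trf2T188A/ApoE-/- plaque cells, or in 50.5% of control and 41.2% of Trf2T188A ligation cells, and no cell had all 7, the most being 6. All nucleated cells have telomeres, so no cell type here should lack these genes and serve as a measure of free RNA.

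At equal depth the shares were lower. After thinning each plaque cell to 8000 UMIs (92 ApoE-/- and 122 Trf2T188A/ApoE-/- cells were shallower and left out), *Terf2* was detected in 14.2% and 12.0% of cells, and *Pot1b* in 4.47% and 4.58%. After thinning ligation cells to 5000 UMIs (325 control and 154 Trf2T188A cells left out), *Terf2* was detected in 8.04% and 7.69%, and *Pot1b* in 0.969% and 1.05%. At own depth all 7 genes were found in a larger share of Trf2T188A than of control ligation cells; thinned, the intervals of the 2 genotypes overlapped for every gene in both experiments. Mean numbers of shelterin genes detected per cell were 1.57 and 1.51 in plaque and 0.671 and 0.873 after ligation at own depth, and 0.595 and 0.571, and 0.366 and 0.364, after thinning.

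**Figure D2:**
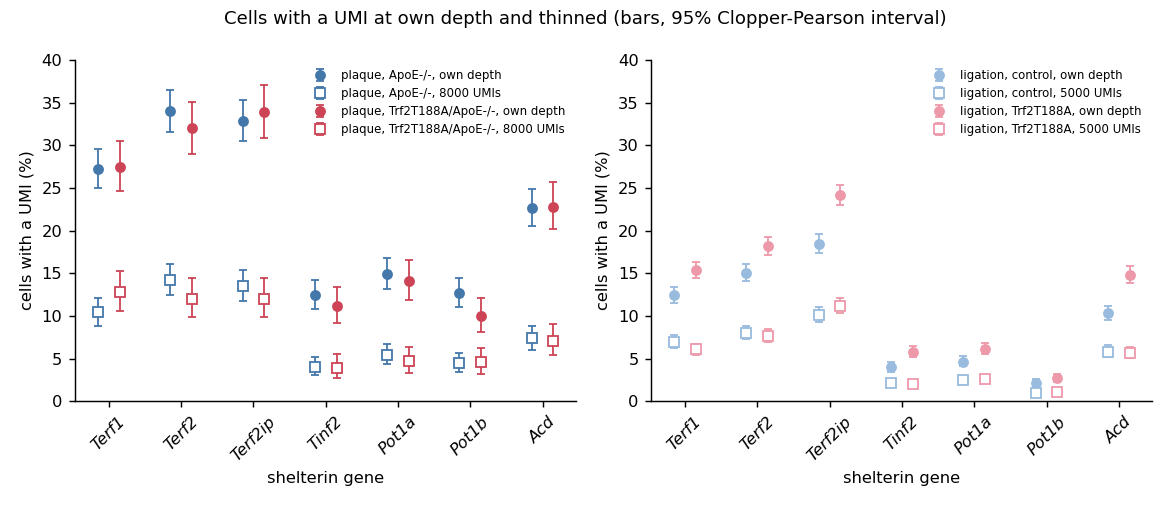
Percentage of cells with a UMI (y axis) of each shelterin gene (x axis) in plaque (left) and ligated artery (right), at own depth (filled circles) and after thinning each cell to 8000 or 5000 UMIs (open squares), with 95% Clopper-Pearson intervals as bars. The higher shares of Trf2T188A ligation cells at own depth (24.1% against 18.4% for *Terf2ip*) come down to shares that overlap (11.2% against 10.1%).

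Taken as a set of transcripts, shelterin had a similar makeup in the 2 genotypes of each experiment. *Terf2* gave 23.2% of the shelterin UMIs in both plaque libraries, 23.1% in the ligation control and 21.2% in the Trf2T188A ligation library. *Terf2ip* gave 21.2% and 23.2% in plaque and 28.5% and 29.0% after ligation. *Pot1b* gave 8.19% (95% Clopper-Pearson interval 7.23 to 9.23) and 6.15% (5.12 to 7.33) in plaque and 2.95% and 2.86% after ligation. *Acd* gave between 13.7% and 16.7%, and *Tinf2* between 5.62% and 7.05%.

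**Figure D3:**
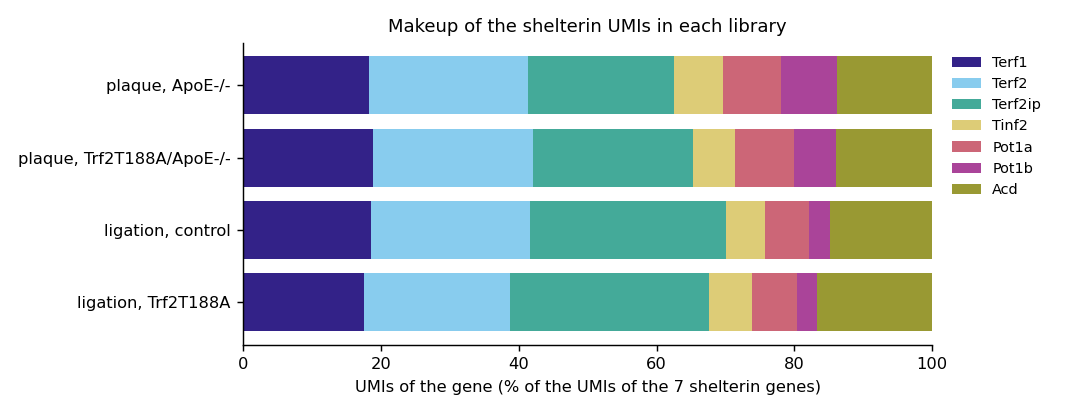
Share of each shelterin gene (colours) in all shelterin UMIs of a library (x axis, percent), 1 bar per library. *Terf1*, *Terf2* and *Terf2ip* together fill most of each bar, and the *Pot1b* segment narrows from 8.19% and 6.15% in plaque to 2.95% and 2.86% after ligation.

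The first genotype comparison asked whether the Trf2T188A transgene went with other shelterin levels in plaque. Across all plaque cells the 7 genes summed to 79.0 CPM in both genotypes, on 2992 UMIs in ApoE-/- and 1901 in Trf2T188A/ApoE-/- cells, and the 95% interval of their log2 ratio ran from -0.08 to 0.08. A gene was counted as past the threshold at an absolute log2 ratio of 0.25, and 1 of the 7 was past it: *Pot1b*, with 245 UMIs against 117, at a log2 ratio of -0.41 (-0.74 to -0.09). Of the 10526 genes that were detected in 10% or more of the cells of one or both genotypes, 9.75% were past the threshold, so 1 in 7 is near the background. The median log2 ratio was 0.01 over the 7 genes and -0.01 over all genes that passed the filter.

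The other 6 lay within the threshold, with intervals that included 0. *Terf2*, with 694 and 441 UMIs, had the same level in both genotypes, and the interval of its log2 ratio ran from -0.18 to 0.17. *Terf2ip* was at 0.13 (-0.05 to 0.31), *Terf1* at 0.05 (-0.14 to 0.25) and *Acd* at 0.02 (-0.21 to 0.25). *Tinf2* was at -0.20 (-0.54 to 0.14) and *Pot1a* at 0.01 (-0.29 to 0.30), on fewer UMIs.

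The *Pot1b* value stayed between -0.49 and -0.33 with any single plaque cluster left out, and was -0.38 when levels were compared within clusters and -0.29 when every cell was weighted equally, but with each cell thinned to 8000 UMIs it was 0.02 (-0.58 to 0.60) on 69 and 40 UMIs. In the clusters, *Pot1b* was lower in Trf2T188A/ApoE-/- cells in cluster 9 (2 UMIs against 17) and in chondrocyte-like cluster 8 (4 against 16), and of clusters 0 to 11 it was higher only in cluster 6 (11.7 against 7.78 CPM) and cluster 11 (19.4 against 7.14).

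After ligation, the same comparison was made in smooth muscle cells, 4886 control and 5270 Trf2T188A. The 7 genes summed to 76.8 CPM in control and 78.3 in Trf2T188A cells, a log2 ratio of 0.03 (-0.03 to 0.09) on 3591 and 5149 UMIs. None of the 7 was past the threshold, beside 10.8% of the 8232 genes that passed the filter, and 4 of the 7 passed it (*Terf1*, *Terf2*, *Terf2ip* and *Acd*). With no replicate libraries there is no unadjusted p to set beside this count.

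*Acd* came closest, with 532 UMIs (11.4 CPM) in control and 859 (13.1 CPM) in Trf2T188A cells, a log2 ratio of 0.20 (0.04 to 0.36). Among the 7 genes it alone had an interval that did not include 0, and thinning to 5000 UMIs gave -0.04 (-0.28 to 0.21). *Terf2* was at -0.09 (-0.22 to 0.04) and *Terf1* at -0.08 (-0.23 to 0.07), *Terf2ip* at 0.07 (-0.04 to 0.19), *Tinf2* at 0.12 (-0.14 to 0.39), *Pot1a* at 0.05 (-0.19 to 0.30) and *Pot1b* at -0.08 (-0.45 to 0.30).

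**Figure D4:**
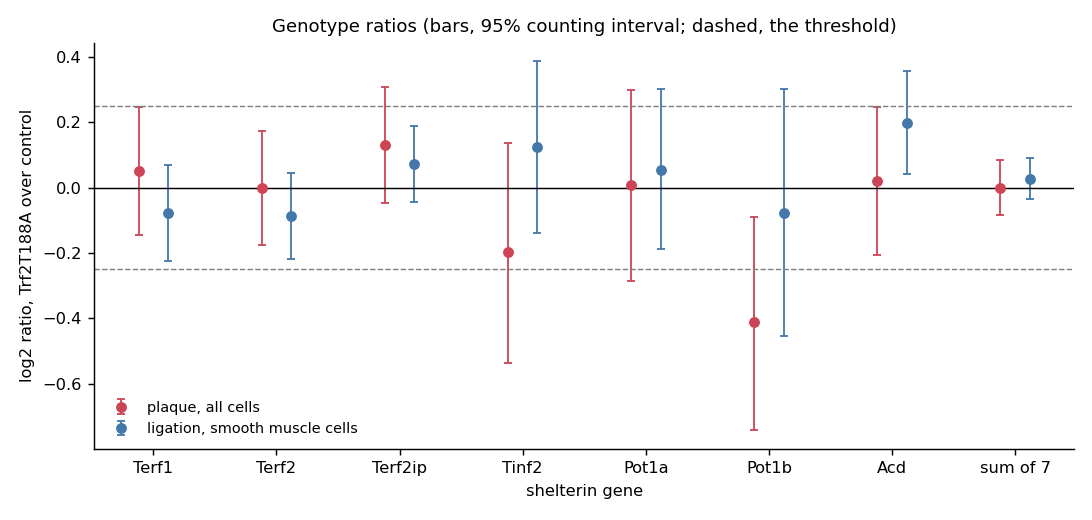
Log2 ratio of Trf2T188A over control (y axis) for each shelterin gene and their sum (x axis), in all plaque cells (red) and ligation smooth muscle cells (blue), with 95% counting intervals as bars and the threshold of 0.25 dashed. *Pot1b* in plaque (-0.41) is the single point past the threshold, and *Acd* after ligation (0.20) the only other whose interval leaves out 0.

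Within cell classes the counts became small and the background high. In contractile-like cells (653 ApoE-/-, 291 Trf2T188A/ApoE-/-) 1 of 7 was past the threshold, beside 18.6% of all genes: *Pot1a*, at 6.27 CPM on 87 UMIs against 8.89 on 58, a log2 ratio of 0.50 with an interval that reached from just below 0 to 0.999. With cells thinned to 8000 UMIs it was -0.21 (-1.25 to 0.73) on 37 and 13 UMIs. *Pot1b* in these cells was at 0.20 (-0.34 to 0.71), without cluster 9, where *Pot1b* was lower in Trf2T188A/ApoE-/- cells. In fibromyocyte-like cells (160 and 129) 4 of 7 were past it, beside 38.1% of all genes, with *Terf2ip* at 0.35 and *Tinf2*, *Pot1a* and *Pot1b* at -0.45, -0.75 and -0.37. Thinned, *Tinf2* in these cells was at 1.43 on 2 and 4 UMIs.

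In acute-phase-like cells, where *Pot1b* did not pass the filter, 1 of 7 was past the threshold, *Pot1a* at -0.40, beside 42.9% of all genes. In chondrocyte-like cells it was 5 of 7, beside 53.3%. The count in acute-phase-like cells was 6 with cells thinned, 4 with cells weighted equally, 4 in reporter cells, 2 without the highest Scrublet scores and 0 by the formula of the study. The counts of the other plaque classes also moved by more than 1.5 times under some alternatives. In chondrocyte-like cells the signs of *Terf1* and *Acd* turned when cells were weighted equally, to 0.071 and -0.078. *Pot1b* and *Tinf2* lay furthest from 0 in chondrocyte-like cells, at -1.50 (-3.54 to 0.13) on 16 and 4 UMIs and at -1.37 (-3.85 to 0.55) on 11 and 3. Every interval of a single member in the 4 plaque classes included 0. *Terf2* stayed between -0.04 and 0.22 in all 4 classes.

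Among ligation clusters, none of the 7 was past the threshold in cluster 0 (1621 and 2326 cells), beside 13.1% of all genes. None was past it in remodelling-like cells (2021 and 1906) either, beside 20.8%. Of the 7, 4 passed the filter in cluster 0 and 4 in remodelling-like cells, and these backgrounds cover only genes that passed. In de-differentiated-like cells (1126 and 976) 3 of 7 were past it, beside 21.1% of all genes: *Acd* at 0.50 (0.14 to 0.87), *Pot1a* at 0.35 (-0.27 to 0.99) and *Tinf2* at 0.27 (-0.30 to 0.84). *Tinf2* and *Pot1a* did not pass the filter there, so of the 4 members that did, 1 was past the threshold. *Acd* had 106 UMIs (9.81 CPM) in control and 170 (13.9 CPM) in Trf2T188A cells, and the control value was the lowest among the 3 large clusters of both libraries. Thinned to 5000 UMIs, the *Acd* ratio in these cells was 0.05 (-0.51 to 0.61) on 59 and 55 UMIs, and that of *Tinf2* was -0.70.

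Cell classes were then set side by side within each library, as a description, since classes were formed from the same cells (no shelterin gene was among the variable genes used for clustering). Summed shelterin varied little among smooth muscle classes: 82.1 and 85.2 CPM in contractile-like, 77.6 and 78.6 in fibromyocyte-like, 72.8 and 73.1 in acute-phase-like and 77.9 and 70.6 in chondrocyte-like plaque cells of ApoE-/- and Trf2T188A/ApoE-/- mice. In ligated artery it was 85.2 and 84.1 in cluster 0, 72.5 and 71.8 in remodelling-like and 72.0 and 76.4 in de-differentiated-like cells of control and Trf2T188A mice. Remodelling-like cells thus stood below cluster 0 in both libraries, with log2 ratios of -0.23 (-0.34 to -0.12) and -0.23 (-0.32 to -0.14), beside medians over all genes of -0.05 and -0.09. Log2 ratios of the 7 genes in remodelling-like over cluster 0 cells lay between -0.29 (*Terf1*) and -0.11 (*Pot1a*) in control cells. In Trf2T188A cells they lay between -0.44 (*Tinf2*) and -0.07 (*Terf2*). The medians over all genes were below 0 as well, and the share of all genes that were lower was not counted. The intervals of *Terf1*, *Terf2* and *Terf2ip* in control and of *Terf2ip* and *Tinf2* in Trf2T188A cells did not include 0. The other intervals included it. In de-differentiated-like cells *Terf2* stayed close to cluster 0, at 18.6 against 19.1 and 17.5 against 16.9, whereas *Terf2ip* was lower in both libraries, at -0.37 (-0.62 to -0.12) and -0.30 (-0.50 to -0.09).

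*Terf2* showed no common order among the plaque classes, between 16.7 and 20.0 CPM in ApoE-/- and between 17.6 and 23.2 in Trf2T188A/ApoE-/- cells. It was highest in chondrocyte-like cells of both, with intervals that overlapped the rest. With cells weighted equally, its log2 ratio in chondrocyte-like over contractile-like Trf2T188A/ApoE-/- cells was -0.027. *Terf2ip* was lower in fibromyocyte-like than in contractile-like cells of both libraries, at 12.4 against 18.5 CPM in ApoE-/- (log2 ratio -0.58, -0.96 to -0.21) and 15.8 against 20.7 in Trf2T188A/ApoE-/- (-0.39, -0.84 to 0.05), although in the second library thinning turned this to 0.36. In chondrocyte-like cells *Terf2ip* was at 14.6 and 10.6 CPM. Both POT1 genes were lower in acute-phase-like than in contractile-like cells. In Trf2T188A/ApoE-/- mice *Pot1a* was at 3.74 against 8.89 CPM (-1.25, -2.33 to -0.31) and *Pot1b* at 3.40 against 7.51 (-1.14, -2.29 to -0.15), while in ApoE-/- mice the intervals included 0, at -0.35 and -0.86.

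*Tinf2* was lowest in chondrocyte-like cells of both plaque libraries, at 3.28 CPM on 11 UMIs and 1.27 on 3, against 6.49 and 5.83 in contractile-like cells. The log2 ratios were -0.98 (-2.04 to -0.08) and -2.20 (-4.54 to -0.54), beside medians over all genes of -0.30 and -0.31 in these cells. Thinned, they were -1.06 and -1.16. *Pot1b* in chondrocyte-like over contractile-like cells was at -0.46 (-1.33 to 0.32) and -2.15 (-4.08 to -0.70). *Pot1a*, by contrast, was at 0.46 (-0.20 to 1.09) and -0.23 (-1.08 to 0.56). Median mitochondrial shares of these cells were 1.51% and 0.605%, against 2.52% and 1.78% in contractile-like cells, and the part of such differences was not tested.

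Of the unnamed plaque clusters, cluster 10, led by *Adamtsl1*, had the highest summed level of those with over 40 ApoE-/- cells, at 111 CPM on 95 UMIs, with *Terf2* at 35.2 (23.7 to 50.2) on 30 UMIs. In the Trf2T188A/ApoE-/- library the same cluster, of 40 cells, stood at 90.4 in sum and at 18.6 for *Terf2*. Cluster 5, with medians of 9881.5 and 7627 UMIs per cell, had the fewest, at 63.4 and 71.1 in sum. There *Terf2* was at 14.5 CPM on 16 UMIs in ApoE-/- and 6.55 on 7 in Trf2T188A/ApoE-/- cells. *Malat1*, a nuclear RNA, took 451 and 615 UMIs per 10000 in cluster 5, against 243 and 243 in contractile-like cells, and its part in these levels was not tested.

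Non-smooth-muscle cells of the ligated artery were few. Endothelial-like cells (62 and 65) had summed shelterin levels of 115 (92.5 to 141) and 128 (107 to 151) CPM in control and Trf2T188A mice, above every large smooth muscle cluster of the same library. *Terf2* in them was at 29.9 and 27.7. Myeloid-like cells (19 and 57) held 17 and 62 shelterin UMIs. In the Trf2T188A library their *Tinf2* was at 28.6 (16.4 to 46.5) and their *Pot1b* at 16.1 (7.37 to 30.6) CPM, against 5.18 and 2.51 in cluster 0. Their *Terf2ip* there was at 8.95 on 5 UMIs, against 26.0. In the control library myeloid-like cells had 1 *Tinf2* and 2 *Pot1b* UMIs, too few to place them. *Terf2ip* went the other way in the control library, at 31.9 CPM on 5 UMIs against 24.6 in cluster 0.

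**Figure D5:**
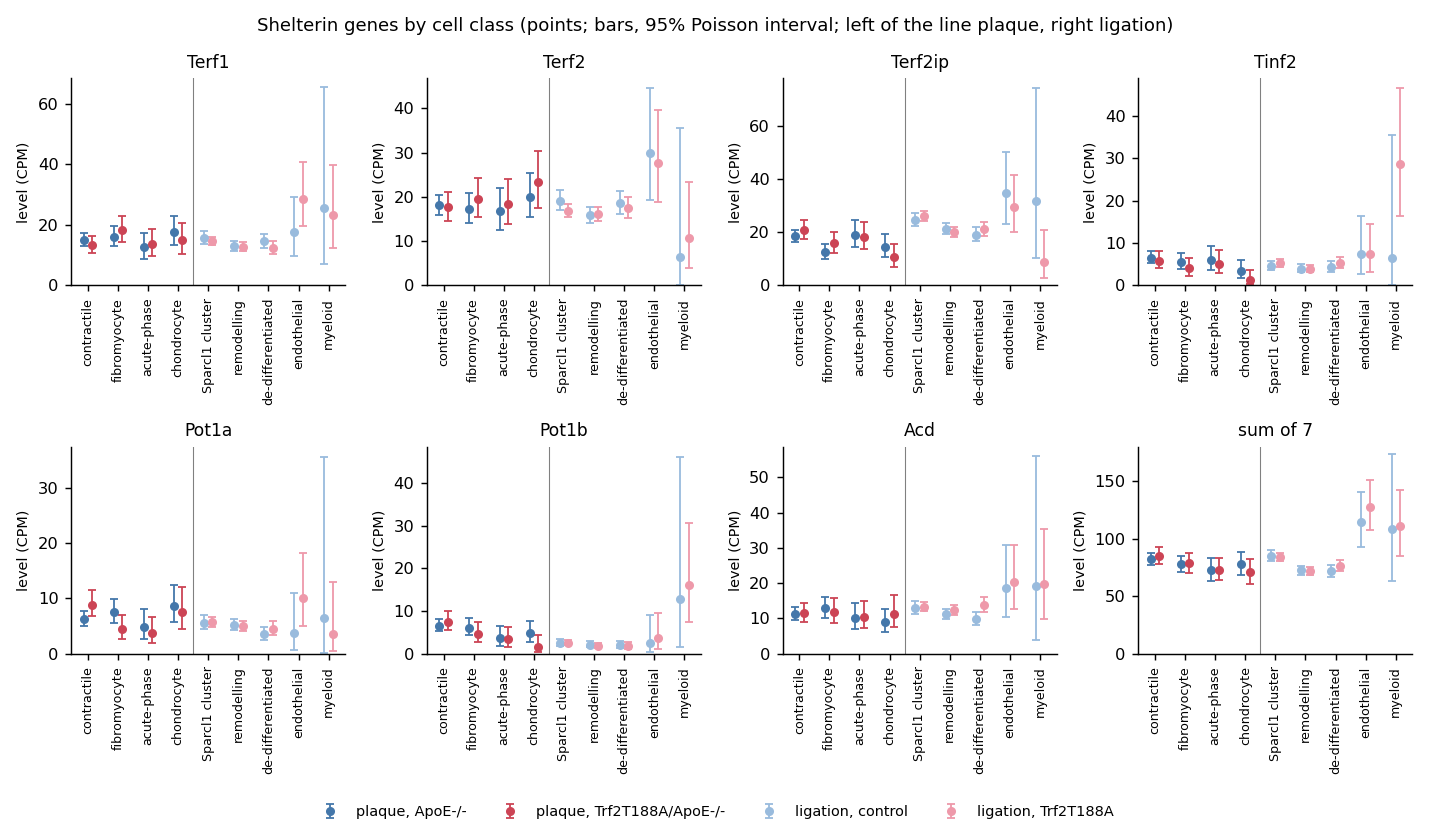
Level in CPM (y axis) of each shelterin gene and of their sum by cell class (x axis), in both libraries of plaque (left of the line) and ligation (right), with 95% Poisson intervals as bars. The smooth muscle classes plotted have summed levels from 70.6 to 85.2, endothelial-like cells are higher (115 and 128), and *Tinf2* and *Pot1b* of myeloid-like cells reach 28.6 and 16.1 in the Trf2T188A library.

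By the labels and methods, plaque and ligated artery of control mice differ at least in ApoE, Myh11-CreERt2, Confetti, diet, ligation, vessel, cell selection and processing. Plaque reads were counted with Cell Ranger 7.0.0 and ligation reads with 6.1.2. The part of this in the levels of long and short genes was not tested. Tamoxifen is given for the plaque mice only. Their levels can therefore only be set side by side. In ApoE-/- plaque and in control ligation smooth muscle cells the 7 genes summed to 79.0 and 76.8 CPM. *Pot1b* was at 6.47 against 2.25, a fold of 2.88 (2.28 to 3.66), and at 2.28-fold in the Trf2T188A pair of libraries. *Pot1a* was 1.33-fold (1.11 to 1.60) and *Tinf2* 1.30-fold (1.06 to 1.58) in plaque over ligation, beside 1.29-fold and 1.04-fold in the Trf2T188A pair, where the log2 interval of *Tinf2* ran from -0.27 to 0.37, and *Terf2ip* 0.766-fold (0.693 to 0.847). *Terf1*, *Terf2* and *Acd* had intervals that included equal levels in the control pair. Of 10378 genes that passed the filter in either library, 6.44% had a ratio at least as high as that of *Pot1b*, and the median log2 ratio was 0.12.

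The human TRF2 transgene itself was counted in a row of its own in the plaque tables. It had 0 UMIs in 1502 ApoE-/- cells. Taking 3 counts as what a count of 0 allows, up to 0.1997% of them could have a UMI. That share is neither a Clopper-Pearson bound nor a share of cells expressing the transgene. In Trf2T188A/ApoE-/- plaque the transgene had 10 UMIs in 9 of 929 cells (0.969%). At 0.416 CPM, an estimate from these 10 UMIs, it was 5.25-fold the 0.0792 CPM that 3 counts in the ApoE-/- library stand for. Mouse *Terf2* in the same library had 441 UMIs, so the transgene made up 2.22% (95% Clopper-Pearson interval 1.07 to 4.04) of the UMIs of both. The 9 cells lay in fibromyocyte-like cells (3), contractile-like cells (2), cluster 5 (2), acute-phase-like (1) and chondrocyte-like cells (1), and 2 of the 9 also had a mouse *Terf2* UMI. Smooth muscle 22-alpha (*Tagln*), whose promoter drives the transgene, had UMIs in 95.7% of the cells of that library. Which part of the transgene the row covers is not given in the sources used here, so a count of 0 in a cell does not show that it lacks the transgene, and the mouse *Terf2* row does not check the genotype. The ligation tables list no such row.

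Other telomere genes were read beside shelterin from a list of 47: telomerase and its assembly factors (9), the CST complex that fills in the end (3), end processing and telomeric chromatin (18) and damage response at chromosome ends (17). In plaque 38 of them passed the filter and 1 was past the threshold, with a median log2 ratio of -0.01. It was *Ctc1*, the large CST subunit, at -0.26 (-0.56 to 0.05) on 263 and 140 UMIs. In ligation smooth muscle cells 30 passed and 1 was past it, with a median of -0.05. This was *Gar1*, a protein of the telomerase ribonucleoprotein, at 0.28 (0.17 to 0.39) on 1071 and 1830 UMIs. The shares of 1 in 38 and 1 in 30 lie below the backgrounds of 9.75% and 10.8%. *Tert*, the catalytic subunit of telomerase, had 22 and 23 UMIs in the plaque libraries and 8 and 14 in the ligation libraries.

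Within classes, the telomere genes past the threshold with at least 100 UMIs in each library were scattered. In contractile-like plaque cells *Atm*, the kinase that TRF2 holds in check at telomeres, was at 0.40 (0.05 to 0.74), *Wrn* at -0.29 and *Xrcc5* at 0.26. *Tnks2*, which modifies TRF1, was at 0.32 in fibromyocyte-like and *Nop10* at 0.26 in chondrocyte-like cells. After ligation *Gar1*, *Mdc1*, *Rnf8* and *Rif1* were at 0.31, 0.31, 0.27 and -0.26 in cluster 0. In remodelling-like cells *Fbxo4*, which targets TRF1 for destruction, was at 0.39, and *Prkdc*, *Wrn* and *Atrip* were at -0.35, -0.28 and -0.27. In de-differentiated-like cells *Mdc1*, *Hmbox1*, *Trp53bp1* and *H2ax* were at -0.40, -0.35, -0.33 and -0.30. Of the listed genes that passed the filter, 9 of 38 were past the threshold in contractile-like and 13 of 43 in fibromyocyte-like cells. In acute-phase-like and chondrocyte-like cells it was 15 of 40 and 19 of 39. The shares over all genes were 18.6%, 38.1%, 42.9% and 53.3%. In cluster 0, remodelling-like and de-differentiated-like cells it was 4 of 31, 4 of 30 and 7 of 30, beside 13.1%, 20.8% and 21.1%. Of the last 7, 3 were higher and 4 lower, the highest at 0.79.

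Across the 18 groups of at least 100 cells of 1 cluster and library, levels centred per library were compared among 10384 genes. The genes whose level followed *Terf2* most closely were *Fam229b*, *Bloc1s4* and *Atp6v0c*, with Pearson's r of 0.91, 0.91 and 0.89. Among shelterin genes *Acd* had an r of 0.67 with *Terf2*, *Terf2ip* of 0.38, *Pot1a* of -0.07, *Pot1b* of -0.13, *Terf1* of -0.20 and *Tinf2* of -0.79. *Cmas*, *Crip2* and *Chchd6* followed the summed shelterin level most closely, with r of 0.88, 0.86 and 0.85. These values are a description over few groups that share libraries and rest on small counts.

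Cells with a UMI of *Cdkn2a*, which encodes the senescence marker p16, were 49 and 56 in plaque and 280 and 391 after ligation. Their summed shelterin levels were 75.1 and 80.1 CPM in ApoE-/- and Trf2T188A/ApoE-/- plaque, against 79.3 and 78.9 in the other cells. After ligation they were 66.6 (58.3 to 75.7) and 74.4 (67.8 to 81.5), against 78.4 (75.8 to 81.1) and 79.8 (77.6 to 82.1) in the other cells of control and Trf2T188A mice. *Terf2* in cells with a *Cdkn2a* UMI was at 18.6 and 19.8 in plaque and 14.2 and 16.3 after ligation. *Terf2ip* in ApoE-/- plaque was at 9.49 (6.02 to 14.2) in cells with a *Cdkn2a* UMI, against 17.2 (15.9 to 18.7) in the others. In Trf2T188A/ApoE-/- plaque it was at 19.0 against 18.3. All other intervals of single members overlapped between cells with and without a *Cdkn2a* UMI. Cells with a *Cdkn2a* UMI were deeper, with medians of 55182 against 22436 UMIs in ApoE-/- plaque and 11236.5 against 8538 in the ligation control. The part of depth and of cell class in these differences was not tested.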

How the data were processed

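Aortic and carotid plaque cells and ligated carotid cells of mouse were profiled by droplet single-cell RNA-seq in 4 libraries, 1 per genotype and experiment. Per the labels, reads were counted on GRCm38 with Cell Ranger 6.1.2 (ligation) or 7.0.0 (plaque) and handled in Seurat 3.2.1 (ligation) or 4.3.0 (plaque), while the study's methods give Seurat 4.3.0 for both. The authors removed plaque cells under 1500 (ApoE-/-) or 1000 (Trf2T188A/ApoE-/-) genes or above 8% mitochondrial reads, kept Confetti-expressing clusters, and removed ligation cells under 1200 genes, above 6% mitochondrial reads or above 40% of reads in the top genes. The deposited values are a linear signal, the UMI count of a gene per 10000 UMIs of the cell. 100% of values came out as whole UMIs within 0.01. Unequal cell filters and Cell Ranger versions can shift levels between libraries.

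Counts were recovered, clustered in Seurat 5.3.0 (R 4.3.3; 2000 variable genes, 18 or 17 components, resolution 0.9 or 0.2, as in the study) and named from marker lists. Counts were summed over cells and given as CPM (per 1000000 UMIs) with exact Poisson intervals, shares with Clopper-Pearson intervals, and genotype ratios with exact conditional binomial intervals (scipy 1.17.1), all at 95% and for counting error only. PCR duplicates are collapsed by UMIs. Genes detected in 10% or more of the cells of one or both genotypes formed the background. Ratio code was tested on simulated data. Scrublet marked no more than 0.323% of any library as doublets, which is too few for it to have worked, so none were removed in the main results. The genes named are all 7 shelterin genes, telomere genes past 0.25 with at least 100 UMIs in each library (at most 4 per comparison, in comparisons with a background share), and the 3 genes most like *Terf2* and the shelterin sum. Members and lists were chosen with earlier results of these data known. Alternatives tried were the clustering resolution, thinning, the weighting, scaling and threshold, and cell filters. Leaving out a replicate was impossible with 1 library per group.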

Additional observations from a re-analysis of the deposited data

Results flagged for a closer look

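The human TRF2 transgene row is outside the comparison of the 7 mouse genes and was looked at because it held 10 UMIs in Trf2T188A/ApoE-/- plaque and 0 in ApoE-/- plaque, above the 3 counts that a count of 0 allows.

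*Pot1a* had opposite signs in classes of the plaque libraries, at a Trf2T188A over control log2 ratio of 0.50 in contractile-like and -0.75 in fibromyocyte-like cells. Thinned, the first was -0.21 (-1.25 to 0.73) on 37 and 13 UMIs, an interval too wide to settle its sign. *Terf2ip* also had opposite signs, at 0.35 in fibromyocyte-like and -0.47 in chondrocyte-like cells. Each is a single pair of libraries, the intervals of the 4 values before thinning include 0, and the difference between classes was not tested.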

How the results depend on the processing

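No paired analysis was possible because each genotype has 1 library per experiment, and for the same reason no replicate could be left out. Values are log2 ratios of Trf2T188A over control or of a class over its reference, and counts are of genes past 0.25; comparison within clusters, leaving out each cluster and thinning of class contrasts were added after seeing the data. The summed shelterin ratio over all plaque cells or ligation smooth muscle cells stayed within its counting interval under every alternative run. With every cell thinned, *Pot1b* in plaque was 0.018, *Pot1a* in contractile-like cells -0.21, and *Tinf2* 1.43 in fibromyocyte-like and -0.70 in de-differentiated-like cells. Thinned sums were -0.11 in contractile-like and -0.11 in de-differentiated-like cells, and over their reference class -0.40 in acute-phase-like (ApoE-/-), 0.29 in fibromyocyte-like (Trf2T188A/ApoE-/-) and -0.26 in de-differentiated-like cells (Trf2T188A). Thinned class contrasts also turned *Terf1* in acute-phase-like cells (0.093), and *Terf2ip* in chondrocyte-like (0.17, ApoE-/-) and fibromyocyte-like cells (0.36, Trf2T188A/ApoE-/-). Thinned counts of shelterin genes were 3 in contractile-like, 6 in acute-phase-like, 1 in cluster 0 and 1 in remodelling-like cells. With cells weighted equally, counts were 4 in acute-phase-like cells and 1 in cluster 0. The genotype ratios of *Terf1* and *Acd* in chondrocyte-like cells were then 0.071 and -0.078. Over contractile-like cells, *Terf1* in acute-phase-like cells (ApoE-/-) was then 0.027 and *Terf2* in chondrocyte-like cells (Trf2T188A/ApoE-/-) -0.027. The formula of the study, which adds 1 to each mean, gave 0 shelterin genes past 0.25 in all plaque cells, each plaque class and de-differentiated-like cells, with *Terf1* and *Acd* in chondrocyte-like cells at 0.012 and -0.0062. Without the highest Scrublet scores the counts were 2 in plaque, 2 in acute-phase-like and 1 in remodelling-like cells. In reporter cells they were 3 in contractile-like and 4 in acute-phase-like cells, and *Terf1* in chondrocyte-like cells was 0.078. At 0.5 they were 0 in plaque, 1 in fibromyocyte-like, 0 in acute-phase-like, 2 in chondrocyte-like and 1 in de-differentiated-like cells. At a clustering resolution 0.5 times as high, 2 genes were past in contractile-like and 2 in fibromyocyte-like cells, and acute-phase-like and de-differentiated-like cells did not form. Of the other telomere genes, 1 in plaque became 2 (thinned, equal weights, Scrublet, at least 2000 genes) or 0 (formula of the study, median-of-ratios), and 1 after ligation became 2 (thinned, equal weights, median-of-ratios, all cells), 3 (Scrublet) or 0 (formula). The cause was not tested for any of these. For 4 thinned ratios a library had 0 UMIs and no value could be had. Levels of a few CPM and under 20 UMIs in many classes limit the precision.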
